A study of Mus musculus with 5 samples.

Results

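Expression of 10 genes that make, move and use pyruvate and lactate was examined in mouse epidermis treated on the skin surface with forskolin or with cAMP. The genes were taken by name, Ldha, Ldhb, Slc16a1, Slc16a3, Mpc1, Mpc2, Pdha1, Pdk1, Pdk4 and Pcx, out of 21667 genes listed, with all transcripts of a gene summed. All 10 passed the filter of at least 1 CPM, a read count scaled to the library's total, in at least 2 libraries, which left 13764 genes for testing. Every animal was a C57BL/6 wildtype male aged 7 weeks, given as postnatal day 49, whose back was shaved. The 3 groups were 1 control library labelled untreated, 2 libraries treated with forskolin at 10 µM, and 2 treated with cAMP at 1.325 mM. Forskolin is a plant diterpene that activates adenylyl cyclase, the enzyme that makes cAMP. The compounds were carried in DMSO and a lotion at 5 times the IC50 and given as 3 treatments over 5 days. Whether the control skin received the carrier is not stated, nor whether each library was its own animal. The p-values thus rest on differences between libraries alone, and those may be technical.

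Pyruvate, the end product of glycolysis, stands at a branch point. Lactate dehydrogenase interconverts it with lactate in the cytosol, and monocarboxylate transporters carry both across the plasma membrane. The mitochondrial pyruvate carrier brings pyruvate into mitochondria, where the pyruvate dehydrogenase complex turns it into acetyl-CoA and pyruvate carboxylase turns it into oxaloacetate. Kinases of the PDK family phosphorylate and switch off the dehydrogenase. Citrate made from acetyl-CoA and oxaloacetate can leave the mitochondrion to feed fatty acid synthesis, the work of the sebaceous gland, while glycolysis with lactate release is prominent in keratinocytes.

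The control library stood apart from the 4 treated ones, and each comparison with a treatment rests on it alone. Mitochondrially encoded transcripts took 69.3% of its listed CPM, against 43.2% to 58.1% in the treated libraries, and 9791 genes reached 1 CPM there, against 12867 to 13551. Nuclear genes other than pseudogenes and ribosomal RNA genes took 7.90% of the control's CPM, against 26.0% to 38.0% in the treated libraries. As deposited, the median of all tested genes was 1.69 higher on the log2(CPM + 1) scale with forskolin and 1.66 higher with cAMP than in the control. Scaling each library to its nuclear transcripts, leaving out mitochondrially encoded and ribosomal RNA but keeping pseudogenes, left medians of 1.32 and 1.18. After median-of-ratios scaling, which sets the libraries to a shared median gene, these medians were 0.18 and 0.16. Both scales are given below, and a member is read against the median of its own scale. The label epidermis was met by Krt5 and Krt14, keratins of basal keratinocytes, which together stood at 806 CPM in the control and between 1858 and 4335 CPM in the treated libraries.

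In bulk epidermis, fewer cells of a type and less RNA per cell cannot be told apart. Markers of other cells were summed beside the 10 genes. For 11 genes of sebocytes, the lipid-making cells of the sebaceous gland, the summed level was 233 CPM in the control, 1972 and 3050 CPM with forskolin, and 6483 and 6963 CPM with cAMP. By limma with Benjamini-Hochberg adjustment, 9 of 11 were higher with forskolin and 10 of 11 with cAMP as deposited. After median-of-ratios scaling 7 were higher and Scd3 alone was lower with forskolin, and 9 were higher with cAMP. Of all tested genes, 66.3% were called higher with forskolin and 65.1% with cAMP as deposited, and 14.4% and 14.8% after scaling. The shares called lower were 0.341% and 0.436% as deposited, and 7.39% and 7.78% after scaling. All marker counts here and below stand beside these shares. Dermal fibroblast markers (7 listed, 5 tested) summed to 145 CPM in the control, 9.81 and 199 CPM with forskolin, and 107 and 260 CPM with cAMP. With forskolin 3 of the 5 were lower as deposited (Col1a2, Col3a1 and Dcn) and 4 after scaling, those with Col1a1. The deposited calls of Col1a2 and Col3a1 rest on forskolin 1. Col1a2 stood at 52.3 CPM in the control and 0.968 and 53.3 CPM with forskolin. Col3a1 stood at 35.1 CPM in the control and 1.26 and 42.7 CPM with forskolin. Dcn alone of these was lower in both forskolin libraries as deposited. With cAMP none of the 5 was called as deposited, and Dcn was called lower after scaling. Of 7 adipocyte markers listed, Adipoq, Lep and Retn stayed under 1 CPM in every library. Of the 4 tested, Plin4, Cidec and Adrb3 were higher with both compounds as deposited. After scaling Adrb3 was higher and Cfd lower with forskolin, and Adrb3 and Cidec were higher and Cfd lower with cAMP.

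All 4 T cell and all 3 Langerhans cell markers were called higher with both compounds as deposited, and none after scaling. Of all tested genes, 66.3% were called higher with forskolin and 65.1% with cAMP as deposited, and 14.4% and 14.8% after scaling. Of 3 melanocyte markers, Pmel and Dct were higher with both compounds as deposited, and Dct with cAMP after scaling. Of 6 skeletal muscle markers, Mylpf was higher with cAMP as deposited. After scaling Ckm, Myh4 and Pvalb were lower with forskolin and Myh4 with cAMP. Among keratins, Krt14 was higher with both compounds and Krt5 and Krt1 with forskolin as deposited, and Krt10 was lower with cAMP after scaling. No endothelial (1 tested) or erythrocyte (2 tested) marker was called in these comparisons. The part of these cells in the results below was not tested.

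All 10 genes stood lower in the control than in every treated library on the deposited scale, a position shared by 92.9% of tested genes against forskolin and 91% against cAMP. As deposited, 9 of the 10 were called higher with forskolin (adjusted p at most 0.05, limma), against 66.3% of all tested genes, and none was called lower, against 0.341%. With cAMP the same 9 genes were called higher, against 65.1%, and none lower, against 0.436%. Pdk1 was the gene not called in either. The median log2 change of the 10 was 1.99 with forskolin and 2.84 with cAMP. After median-of-ratios scaling, forskolin had 3 of the 10 called higher (Pcx, Slc16a1 and Pdk4), against 14.4% of all tested genes, and 1 called lower (Pdk1), against 7.39%. On that scale cAMP had 4 called higher (Pcx, Slc16a1, Ldhb and Pdk4), against 14.8%, and none lower, against 7.78%. The medians were then 0.26 and 1.12. The 2 comparisons use the same control library and so are not independent of each other.

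**Figure D1:**
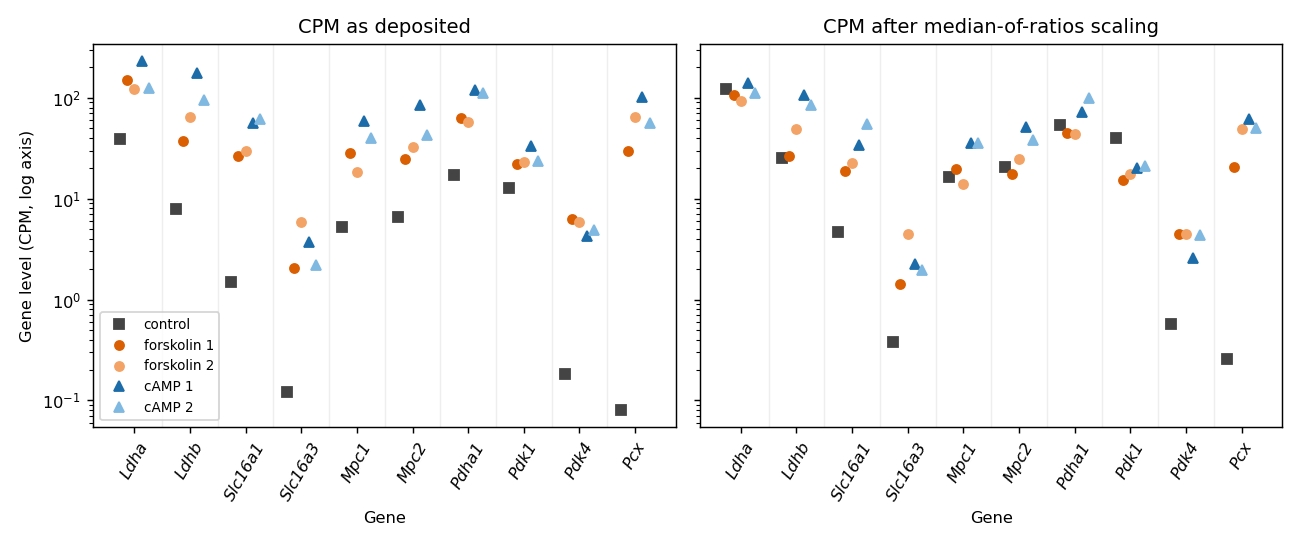
Level of each gene in each library, in CPM on a log axis, as deposited (left) and after median-of-ratios scaling (right). Squares are the control, circles the 2 forskolin libraries and triangles the 2 cAMP libraries. Pcx, Slc16a1, Slc16a3 and Pdk4 lie below every treated library in the control on both scales, while Pdk1 lies above them after scaling.

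**Figure D2:**
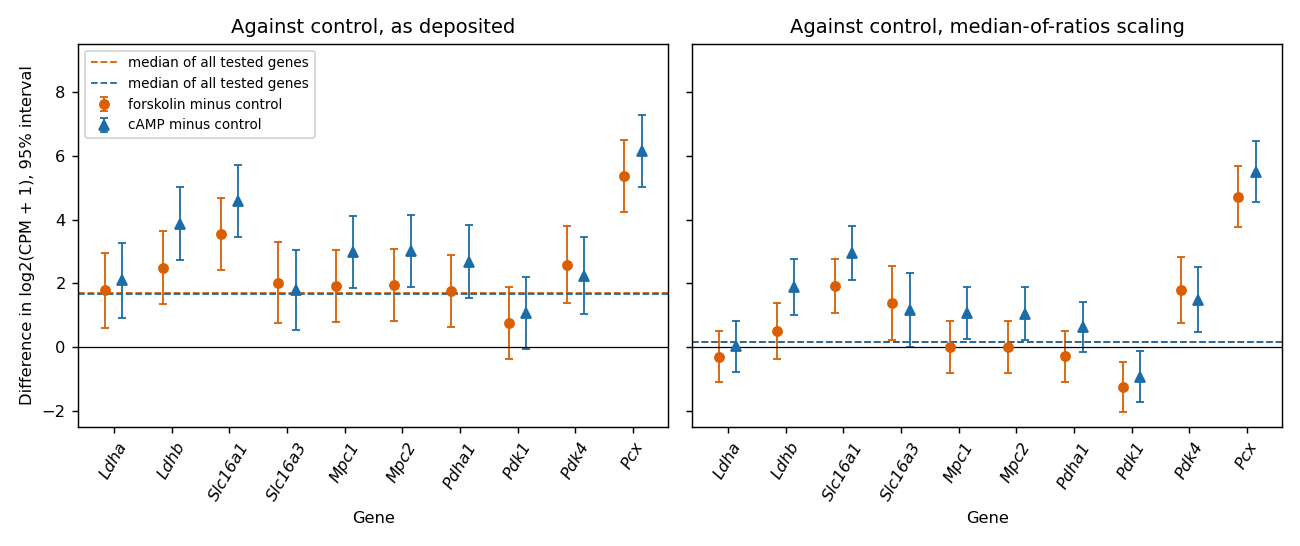
Difference in log2(CPM + 1) from the control for forskolin (circles) and cAMP (triangles), with the 95% interval from limma, as deposited (left) and after median-of-ratios scaling (right). Dashed lines mark the median of all tested genes, 1.69 and 1.66 on the left and 0.18 and 0.16 on the right, and Pcx lies farthest above them.

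Upstream promoter sequence is shown for Pcx and Slc16a1, the 2 genes called higher with both compounds on both scales with the widest differences, and for Ldha, the one gene of the 10 with a full cAMP response element in the windows searched. Each run is the 250 bases before a RefSeq start site (GRCm38.p6), all on the plus strand and none of it exonic in GENCODE M21. Pcx has 2 such sites. Capitals mark every match, on either strand, to TGACGTCA (the full cAMP response element) or to TGACG, with which that element begins. They also mark ACGTG, the core of the hypoxia response element, which lies within the E-box as well, and the DR1 direct repeat bound by nuclear receptors such as PPARs.
Ldha, chr7:46845554-46845803: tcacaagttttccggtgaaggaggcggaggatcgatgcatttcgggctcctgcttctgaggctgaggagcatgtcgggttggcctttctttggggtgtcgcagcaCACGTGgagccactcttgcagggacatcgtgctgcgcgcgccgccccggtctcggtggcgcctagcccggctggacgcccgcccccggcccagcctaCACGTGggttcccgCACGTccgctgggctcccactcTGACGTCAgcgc
Slc16a1, chr3:104638414-104638663: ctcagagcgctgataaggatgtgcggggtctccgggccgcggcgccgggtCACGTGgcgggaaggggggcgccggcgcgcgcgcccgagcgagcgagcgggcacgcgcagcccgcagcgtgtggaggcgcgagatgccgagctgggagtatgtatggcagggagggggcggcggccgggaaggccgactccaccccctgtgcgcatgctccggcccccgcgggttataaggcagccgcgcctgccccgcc
Pcx outer start, chr19:4510222-4510471: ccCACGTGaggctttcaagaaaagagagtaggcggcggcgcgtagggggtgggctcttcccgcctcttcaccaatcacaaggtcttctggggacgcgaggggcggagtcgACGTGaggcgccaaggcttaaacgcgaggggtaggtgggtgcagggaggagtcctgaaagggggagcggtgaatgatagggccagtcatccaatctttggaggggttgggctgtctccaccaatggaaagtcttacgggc
Pcx inner start, chr19:4594069-4594318: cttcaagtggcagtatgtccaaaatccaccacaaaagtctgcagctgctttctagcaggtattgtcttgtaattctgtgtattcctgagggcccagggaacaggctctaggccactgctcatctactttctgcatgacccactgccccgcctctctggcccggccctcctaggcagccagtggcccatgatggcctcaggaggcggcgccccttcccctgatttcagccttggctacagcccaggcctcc
RefSeq windows of 250 bases before and 50 after the start were found for all 10 genes, 14 windows in all. TGACGTCA stood in 1 of the 14, the Ldha window above, starting at -12 from the RefSeq start, against 1.79% of all 32851 windows. TGACG, which the full element contains, stood in 4 of 14, those of Slc16a3, Pdha1 and both sites of Ldha, against 20.8% of all windows. ACGTG stood in 4 of 14, those of Ldha, Slc16a1, Slc16a3 and the outer Pcx site, against 19.6%. The DR1 repeat was in none of the 14, against 0.0396%. These matches describe the letters only, and binding was not measured.

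Pyruvate carboxylase, Pcx (ENSMUSG00000024892, chr19:4510472-4621752), feeds carbon into the citric acid cycle and, in fat-making tissue, into citrate for export. It had the widest difference from the control of the 10 genes. Its level was 0.0810 CPM in the control, 29.5 and 64.4 CPM with forskolin, and 101 and 56.1 CPM with cAMP. The control was far below all 4 treated libraries, and the forskolin and cAMP libraries overlapped on this scale. The control value rests on an estimated 4 reads. The ratio of the forskolin mean to the control was 579, with a 95% Poisson interval for the control count of 226 to 2125, and that of the cAMP mean was 971, with an interval of 379 to 3563. These intervals cover counting error only and depend on that estimate of the reads.

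On the log2(CPM + 1) scale Pcx was higher by 5.37 ± 0.58 (SE) with forskolin (adjusted p = 5.64e-15, limma) and by 6.14 ± 0.58 with cAMP (adjusted p = 8.14e-20, limma). Both were the 3rd largest rise among the 13764 tested genes. The SE in these fits comes mostly from a variance pooled over genes, not from the gene's own spread. limma gave the pooled part 360 degrees of freedom as deposited and 15.7 after median-of-ratios scaling, against 2 from the libraries. The small p-values, here and below, lean on that pooling. After median-of-ratios scaling, Pcx stood at 0.255 CPM in the control, 20.7 and 48.9 CPM with forskolin, and 61.25 and 50.2 CPM with cAMP. It was then higher by 4.71 ± 0.45 with forskolin (adjusted p = 1.16e-05, limma) and by 5.49 ± 0.45 with cAMP (adjusted p = 7.48e-07, limma), ranks 6 and 3. The scaled ratios were 136 (53.3 to 500.4) and 218 (85.2 to 801). Pcx was called higher against the control with both compounds in every alternative setting run, including those that left out each treated library. As deposited, summed markers of every listed cell type but dermal fibroblasts and suprabasal keratinocytes were higher in each treated library than in the control. The part of any of them, sebocytes included, in the Pcx difference was not tested.

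Pcx was listed as 2 protein-coding transcripts that start at the sites shown above. The inner one, Pcx-202, made up 45.1% and 43.3% of the gene's CPM with forskolin and 53.4% and 56.8% with cAMP. Both transcripts were thus near an even share of the deposited values in every treated library. Use of the 2 starts was not measured apart from these values. The control share of 56.8% rests on the 4 reads. Lrfn4, which lies inside Pcx on the opposite strand, shares no exonic base with it.

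The monocarboxylate transporter MCT1, encoded by Slc16a1 (ENSMUSG00000032902, chr3:104638668-104658462), moves lactate and pyruvate with a proton in either direction. Its level was 1.498 CPM in the control, 26.7 and 30.0 CPM with forskolin, and 56.8 and 61.4 CPM with cAMP. All 4 treated libraries were above the control, and both cAMP libraries were above both forskolin libraries. The forskolin mean was 18.9 times the control and the cAMP mean 39.5 times. The log2 difference was 3.55 ± 0.57 with forskolin (adjusted p = 6.99e-08, limma) and 4.59 ± 0.57 with cAMP (adjusted p = 3.36e-12, limma).

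After median-of-ratios scaling Slc16a1 stood at 4.73 CPM in the control, 18.8 and 22.8 CPM with forskolin, and 34.4 and 55.0 CPM with cAMP. The same order held, with log2 differences of 1.92 ± 0.40 (adjusted p = 0.00325, limma) and 2.96 ± 0.40 (adjusted p = 8.43e-05, limma). Like Pcx, Slc16a1 was called higher with both compounds in every setting run. The order of its 3 groups, control, forskolin, cAMP, was as deposited also that of the summed sebocyte and the summed melanocyte markers. Ldhb, Mpc1, Mpc2, Pdha1 and Pdk1 shared that order as deposited, and the part of these cells was not tested.

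MCT4, encoded by Slc16a3 (ENSMUSG00000025161, chr11:120948480-120960868), is the transporter usually tied to lactate release from glycolytic cells. It was scarce, at 0.122 CPM in the control (6 estimated reads), 2.04 and 5.90 CPM with forskolin, and 3.70 and 2.19 CPM with cAMP. The treated libraries were all above the control and the 2 compounds overlapped. As deposited it rose by 2.03 ± 0.64 with forskolin (adjusted p = 0.0041, limma) and by 1.79 ± 0.64 with cAMP (adjusted p = 0.0113, limma). After median-of-ratios scaling its differences of 1.40 ± 0.55 (adjusted p = 0.0753, limma) and 1.16 ± 0.55 (adjusted p = 0.135, limma) were not called. The deposited calls were lost when forskolin 2 was left out (adjusted p = 0.14, limma) and when cAMP 1 was left out (adjusted p = 0.0573, limma). Without a filter on low values neither was called (adjusted p = 0.0759 and 0.103, limma), and with a pseudocount of 5 the cAMP call was lost (adjusted p = 0.0674, limma). Without forskolin 1 the scaled forskolin difference was called, at 1.99 (adjusted p = 0.0259, limma).

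Lactate dehydrogenase is a tetramer of A and B subunits. The A subunit, from Ldha (ENSMUSG00000063229, chr7:46845839-46855627), is associated with forming lactate from pyruvate, and the B subunit, from Ldhb (ENSMUSG00000030246, chr6:142490249-142507957), with the reverse reaction. Ldhb stood at 7.98 CPM in the control, 37.6 and 65.3 CPM with forskolin, and 177 and 95.6 CPM with cAMP. The groups did not overlap, with the control lowest and cAMP highest. Ldha stood at 39.0 CPM in the control, 151 and 123 CPM with forskolin, and 229.9 and 126 CPM with cAMP. Here the control was again lowest, but forskolin and cAMP overlapped on the deposited scale.

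As deposited, Ldhb rose by 2.49 ± 0.58 with forskolin (adjusted p = 0.000123, limma) and by 3.87 ± 0.58 with cAMP (adjusted p = 6e-09, limma). Ldha rose by 1.78 ± 0.59 (adjusted p = 0.0064, limma) and 2.10 ± 0.59 (adjusted p = 0.00143, limma), which was 0.09 and 0.43 above the median of all tested genes. After median-of-ratios scaling the control held 123 CPM of Ldha, the forskolin libraries 106 and 93.6 CPM and the cAMP libraries 139 and 113 CPM. Its forskolin difference turned to -0.30 ± 0.38 (adjusted p = 0.59, limma), and its cAMP difference was 0.03 ± 0.38 (adjusted p = 0.967, limma). Scaled Ldhb was higher by 1.89 ± 0.41 with cAMP (adjusted p = 0.00371, limma). The deposited sebocyte and melanocyte marker sums were highest in the same libraries, and the part of these cells was not tested. The forskolin difference of scaled Ldhb, 0.51 ± 0.41, was not called (adjusted p = 0.38, limma). The deposited Ldha call with forskolin was lost without forskolin 1 (adjusted p = 0.112, limma) or without forskolin 2 (adjusted p = 0.0501, limma).

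The ratio of Ldha to Ldhb within a library needs no scaling. It was 4.89 in the control, 4.03 and 1.88 with forskolin, and 1.30 and 1.32 with cAMP. The control was highest and both cAMP libraries lowest, and forskolin 1 lay nearer the control than its partner did. The ratios given here and below are descriptions, with no test run on them. With protein-coding transcripts alone the Ldha to Ldhb ratio was 4.22 in the control, 4.16 and 1.88 with forskolin, and 1.37 and 1.31 with cAMP, which left the control close to forskolin 1. The retained-intron transcript Ldha-008 took 13.4% of Ldha in the control but 0.120% to 1.05% after treatment. Retained-intron transcripts of all nuclear protein-coding genes took 6.94% of those genes' CPM in the control, against 6.19% to 7.44% after treatment.

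**Figure D3:**
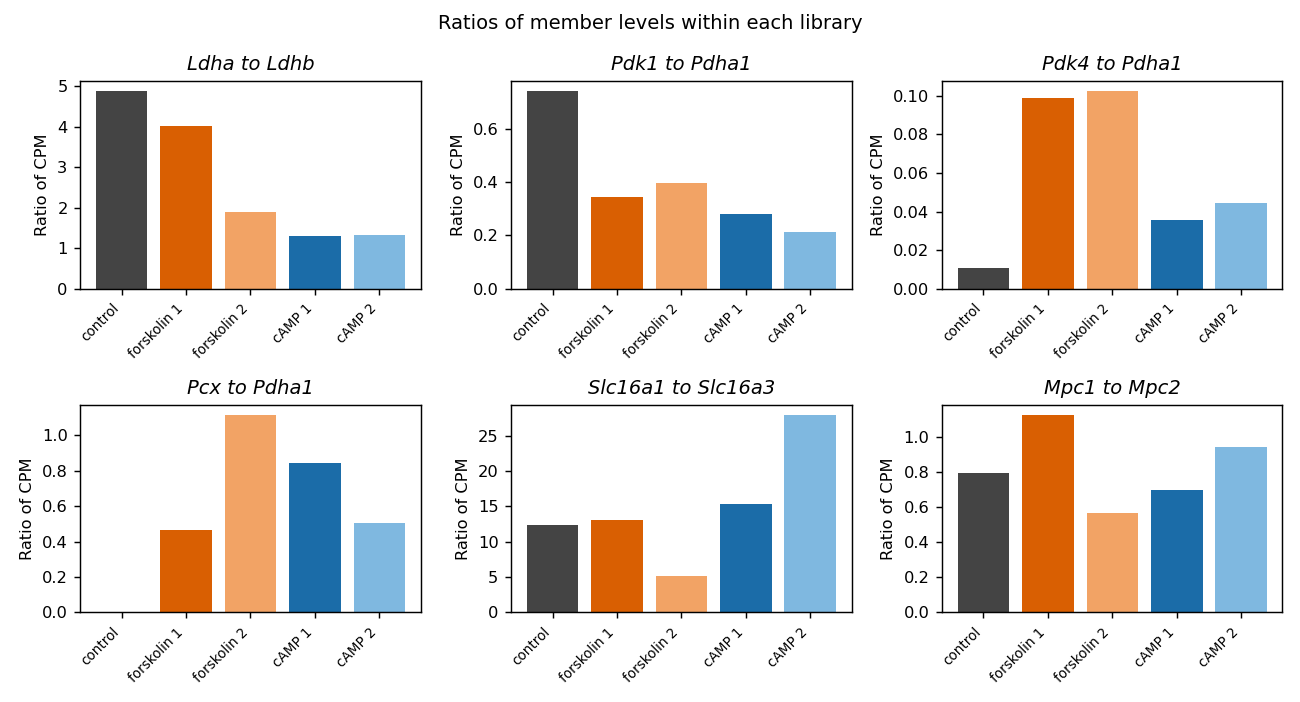
Ratio of the CPM of 2 genes within each library, 1 bar a library and 1 panel a pair, with every axis starting at 0 and on its own scale. The Ldha to Ldhb ratio falls from 4.89 in the control to 1.30 and 1.32 with cAMP, Pdk1 to Pdha1 is highest in the control, and Pcx to Pdha1 in the control, 0.00472, is too small to see.

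The mitochondrial pyruvate carrier is a complex of 2 small proteins, and both are needed for transport. Mpc1 (ENSMUSG00000023861, chr17:8282904-8297661) stood at 5.25 CPM in the control, 28.2 and 18.4 CPM with forskolin, and 58.9 and 40.3 CPM with cAMP. Mpc2 (ENSMUSG00000026568, chr1:165460637-165481214) stood at 6.58 CPM in the control, 24.9 and 32.4 CPM with forskolin, and 84.1 and 42.7 CPM with cAMP. In both genes the control was lowest and the cAMP libraries highest, with no overlap.

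With forskolin Mpc1 rose by 1.93 ± 0.57 (adjusted p = 0.00234, limma) and Mpc2 by 1.96 ± 0.57 (adjusted p = 0.00208, limma), 0.24 and 0.27 above the median of all genes. With cAMP they rose by 2.99 ± 0.57 (adjusted p = 4.31e-06, limma) and 3.01 ± 0.57 (adjusted p = 4e-06, limma). After median-of-ratios scaling the forskolin differences were 0.01 and 0.00. The scaled cAMP differences were 1.07 ± 0.39 for Mpc1 (adjusted p = 0.0545, limma) and 1.05 ± 0.39 for Mpc2 (adjusted p = 0.0609, limma), just outside the threshold. They passed it when forskolin 1 was left out (adjusted p = 0.0448 and 0.0444, limma) or forskolin 2 (adjusted p = 0.043 and 0.0449, limma). As deposited, the forskolin call was lost for Mpc1 without forskolin 1 (adjusted p = 0.0948, limma) and for Mpc2 without forskolin 2 (adjusted p = 0.0612, limma). The ratio of Mpc1 to Mpc2 was 0.798 in the control, 1.13 and 0.569 with forskolin, and 0.701 and 0.943 with cAMP, so the control lay inside the treated range.

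The transcripts behind the carrier values differed in kind. Mpc2-004, which the annotation marks for nonsense-mediated decay, took 37.9% of Mpc2 in the control and, in treated libraries, 46.2% to 49.3%, more than the protein-coding Mpc2-001 in each. The retained-intron transcript Mpc2-005 took 30.3% in the control but 0.507% to 2.62% after treatment, while Mpc2-002, also with a retained intron, was at the offset level in the control and took 2.36% to 12.4% after treatment. Together they took 30.3% of Mpc2 in the control, 14.2% and 8.71% with forskolin, and 2.87% and 5.80% with cAMP. Retained-intron transcripts of Mpc1 went the other way, from the offset level in the control to between 2.57% and 8.84% after treatment. Mpc1 is less certain than the other genes, because its processed pseudogene Mpc1-ps was listed at 1.41 CPM in the control, 10.3 to 17.3 CPM after treatment, and may share reads with it. The lncRNA 4930506C21Rik overlaps 586 exonic bases of Mpc1 on the opposite strand and was at most 1.09 CPM.

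**Figure D4:**
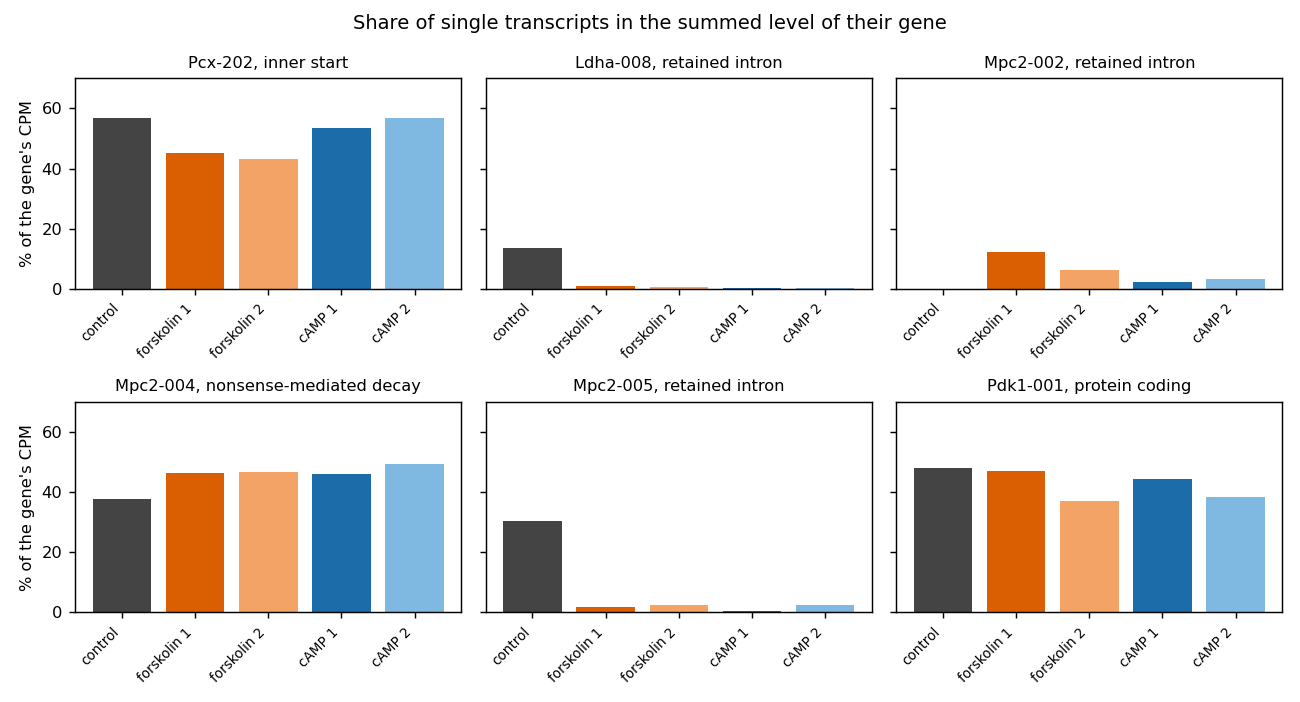
Share of 6 single transcripts in the summed CPM of their gene, as a percentage, 1 bar a library. The retained-intron transcripts Ldha-008 and Mpc2-005 are highest in the control, at 13.4% and 30.3%, and Mpc2-002 is lowest there. Pcx-202 stays between 43.3% and 56.8% in all 5.

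Pdha1 (ENSMUSG00000031299, chrX:160122209-160138413) encodes the catalytic alpha subunit of pyruvate dehydrogenase and carries the sites that the PDK kinases phosphorylate. Its level was 17.2 CPM in the control, 63.7 and 57.7 CPM with forskolin, and 120.0 and 111 CPM with cAMP. The 3 groups did not overlap. It rose by 1.76 ± 0.58 with forskolin (adjusted p = 0.0057, limma), 0.08 above the median of all genes, and by 2.68 ± 0.58 with cAMP (adjusted p = 4.01e-05, limma). After median-of-ratios scaling the differences were -0.28 ± 0.38 with forskolin (adjusted p = 0.608, limma) and 0.64 ± 0.38 with cAMP (adjusted p = 0.227, limma). The deposited forskolin call was lost without forskolin 1 (adjusted p = 0.0944, limma) or without forskolin 2 (adjusted p = 0.0578, limma). Map3k15, which overlaps 603 exonic bases of Pdha1 on the opposite strand, was at most 1.39 CPM.

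The 2 pyruvate dehydrogenase kinases examined differed from each other. Pdk1 (ENSMUSG00000006494, chr2:71873224-71903858), known as a target of hypoxia-inducible factor, stood at 12.7 CPM in the control, 22.0 and 22.9 CPM with forskolin, and 33.6 and 23.5 CPM with cAMP. Its deposited differences of 0.77 ± 0.57 (adjusted p = 0.215, limma) and 1.08 ± 0.57 (adjusted p = 0.0836, limma) were 0.92 and 0.58 under the median of all genes. Without cAMP 2 the cAMP difference was called (adjusted p = 0.0157, limma). After median-of-ratios scaling Pdk1 held 40.2 CPM in the control, 15.4 and 17.5 CPM with forskolin, and 20.4 and 21.01 CPM with cAMP, so that the control was now highest. It fell with forskolin by 1.24 ± 0.38 (adjusted p = 0.0264, limma), a call lost without forskolin 1 (adjusted p = 0.0738, limma). The scaled cAMP difference was -0.92 ± 0.38 (adjusted p = 0.0848, limma).

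Pdk4 (ENSMUSG00000019577, chr6:5483351-5496309), the kinase known to be induced by fasting and by fatty acids, was low in all libraries. It stood at 0.182 CPM in the control (9 estimated reads), 6.31 and 5.92 CPM with forskolin, and 4.28 and 4.92 CPM with cAMP. Both forskolin libraries were above both cAMP libraries, the reverse of the order in Slc16a1, Mpc1, Mpc2, Pdha1, Ldhb and Pdk1. It rose by 2.59 ± 0.61 with forskolin (adjusted p = 0.000164, limma) and by 2.24 ± 0.61 with cAMP (adjusted p = 0.001, limma). After median-of-ratios scaling it was higher by 1.80 ± 0.49 (adjusted p = 0.0148, limma) and 1.48 ± 0.49 (adjusted p = 0.0355, limma). The scaled cAMP call was lost without cAMP 2 (1.19, adjusted p = 0.121, limma) or with the replicate number as a block (adjusted p = 0.0918, limma). With quantile normalization neither difference was called (adjusted p = 0.147 and 0.305, limma).

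Set against Pdha1 within each library, the 2 kinases changed in opposite directions from the control and came nearer each other in level. Pdk1 to Pdha1 was 0.743 in the control, 0.345 and 0.398 with forskolin, and 0.280 and 0.212 with cAMP. Pdk4 to Pdha1 was 0.0106 in the control, 0.0991 and 0.103 with forskolin, and 0.0357 and 0.0444 with cAMP. Thus the control lay outside the treated range in both, above it for Pdk1 and below it for Pdk4. Pdk1 to Pdk4 went from 69.9 in the control to between 3.48 and 7.86 in the treated libraries. Pcx to Pdha1, a ratio of the genes for the carboxylating and the oxidizing route, was 0.00472 in the control, 0.463 and 1.12 with forskolin, and 0.843 and 0.507 with cAMP. Pdk1-002, a transcript annotated without a coding sequence, made up 49.3% to 58.9% of Pdk1 in the treated libraries, against 25.4% in the control. All Pdk1 transcripts annotated in this way together took 53.0% to 63.1% in the treated libraries, against 51.9% in the control.

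The order of the genes can be compared per length, in CPM per kb of the transcripts present. Averaged over the 4 treated libraries it ran Ldha (99.99), Ldhb (76.2), Mpc2 (72.5), Mpc1 (56.9), Pdha1 (32.4), Pcx (15.3), Slc16a1 (9.88), Pdk1 (7.499), Slc16a3 (1.57) and Pdk4 (1.54). Neighbours such as Ldhb and Mpc2 or Slc16a3 and Pdk4 changed places between libraries. Ldha was first in every library except cAMP 1, where Ldhb held 149 and Ldha 145 CPM per kb. Pcx was last of the 10 in the control, at 0.0198 CPM per kb, and 6th or 7th in each treated library.

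Forskolin and cAMP were then compared directly, which needs no control. The question was whether a compound that makes cells produce cAMP and cAMP itself left the same levels. None of the 10 genes differed at an adjusted p of 0.05 (limma), against 0.378% of all tested genes as deposited and 0.349% after median-of-ratios scaling. As deposited, 52 of 13764 genes were called, and 937 had an unadjusted p under 0.05. As deposited, the libraries of the 2 groups did not overlap for 7 of the 10. Of these, Ldhb, Slc16a1, Mpc1, Mpc2, Pdha1 and Pdk1 were lower with forskolin, against 17% of all tested genes, and Pdk4 was higher, against 16.7%. After median-of-ratios scaling Ldha and Pcx joined the genes lower with forskolin, against 20.4% of all tested genes, and Slc16a3 overlapped. Pdk4 was still higher, against 21.2%, but narrowly, with forskolin 1 at 4.44 CPM and cAMP 2 at 4.40 CPM.

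The lowest value was that of Ldhb, whose mean was 51.5 ± 19.6 CPM (SD, n = 2) with forskolin and 136 ± 57.3 CPM (SD, n = 2) with cAMP. Its log2 difference was -1.37, with a 95% interval of -2.30 to -0.44 (adjusted p = 0.293, limma). After median-of-ratios scaling the interval was -2.08 to -0.66 (adjusted p = 0.0856, limma). On that scale the Ldhb difference was called without forskolin 2, at -1.82 (adjusted p = 0.00182, limma), and with the replicate number as a block (adjusted p = 0.0217, limma). Slc16a1, at 28.3 ± 2.30 CPM (SD, n = 2) and 59.1 ± 3.24 CPM (SD, n = 2), differed by -1.04, with an interval of -1.96 to -0.12 (adjusted p = 0.637, limma). For Pcx the interval was -1.70 to 0.15 and for Ldha -1.27 to 0.64, so differences of either sign are within their error. The interval for Pdk4 was -0.64 to 1.33 and that for Slc16a3 -0.79 to 1.27. The missed threshold does not show that the compounds left these genes at the same level.

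**Figure D5:**
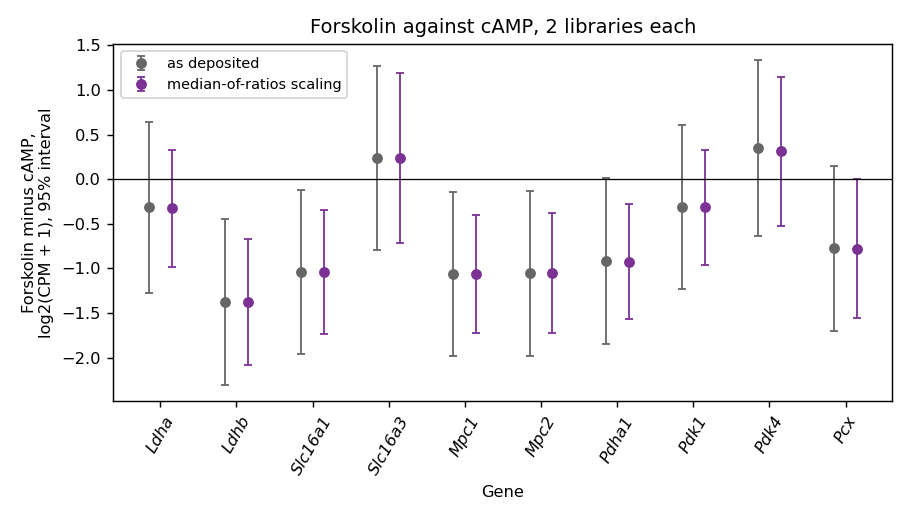
Difference in log2(CPM + 1) between forskolin and cAMP for each gene, with the 95% interval from limma, as deposited (grey) and after median-of-ratios scaling (purple), 2 libraries in each group. The points for 8 of the 10 genes lie below 0, Ldhb lowest at -1.37, and those for Pdk4 and Slc16a3 lie above it.

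The neighbouring steps were described by a list of 36 further genes, of which 34 were listed and 31 tested. As deposited, 25 of 31 were called higher with forskolin and 26 of 31 with cAMP, with medians of 2.02 and 2.45 and none lower. After median-of-ratios scaling, forskolin had 1 called higher and none lower, and cAMP had 9 higher and 1 lower, with medians of 0.26 and 0.62. None of the 31 was called between forskolin and cAMP on either scale. Of all tested genes, 66.3% were called higher with forskolin and 65.1% with cAMP as deposited, and 14.4% and 14.8% after scaling. The shares called lower were 0.341% and 0.436% as deposited, and 7.39% and 7.78% after scaling.

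By role, the 4 other components of the pyruvate dehydrogenase complex tested, Pdhb, Dlat, Dld and Pdhx, were all called higher as deposited with both compounds. Of all tested genes, 66.3% were so called with forskolin and 65.1% with cAMP. With forskolin they lay 0.01 (Pdhb), 0.76 (Dlat), 0.27 (Dld) and 0.04 (Pdhx) above the median of all genes. After scaling only Dlat, the acetyltransferase core, was called with cAMP, at 1.51 (adjusted p = 0.0104, limma), and none with forskolin. Among 5 other kinases and phosphatases of the complex, Pdk2 and Pdpr were called higher as deposited with forskolin and Pdk2 and Pdk3 with cAMP. Pdp1, the phosphatase that reactivates the dehydrogenase, fell after scaling with cAMP by 1.67 (adjusted p = 0.0215, limma). Of 4 tested lactate enzymes, transporters and partners, Bsg, Emb and Ldhd were called with forskolin and these with Slc16a7 with cAMP as deposited, and none after scaling. Bsg and Emb are the chaperones that bring monocarboxylate transporters to the membrane.

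Of 16 other enzymes and carriers tested, 15 were called higher as deposited with each compound, all but Pck2. Among all tested genes that share was 66.3% with forskolin and 65.1% with cAMP. After scaling, 8 of the 16 were called higher with cAMP, against 14.8% of all tested genes. The 8 were the aminotransferases Gpt, Gpt2 and Got2, the malate dehydrogenases Mdh1 and Mdh2, and 3 further genes. These 3 were the citrate carrier Slc25a1, at 2.49 (adjusted p = 0.000629, limma), the dicarboxylate carrier Slc25a10, at 3.28 (adjusted p = 5.21e-05, limma), and the citrate-cleaving enzyme Acly, at 1.96 (adjusted p = 0.00361, limma). With forskolin Slc25a10 alone was called after scaling, at 1.78 (adjusted p = 0.00719, limma). Its level was 1.07 CPM in the control, 14.4 and 25.6 CPM with forskolin, and 65.4 and 49.0 CPM with cAMP as deposited. Of the 2 regulators, Hif1a was called higher as deposited with both compounds and Ppargc1a with neither, and neither gene was called after scaling.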

How the data were processed

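RNA-seq of total epidermis gave 5 libraries. The authors deposited 1 table of normalized values for 59869 transcripts. The deposited values are read here as CPM with a small offset in place of 0, and the listed transcripts sum to 805256 to 947144 per library. The submitters' processing notes name STAR, Partek and bcl2fastq 2.17. The build and annotation are not given in the sources used here. Positions were compared with GENCODE M21 (GRCm38), where 98.3% of the transcripts were found. If the smallest value is an offset of 0.0001 read, the libraries held about 34200000 to 51700000 reads. Only 59.6% to 75.7% of low values were then within 0.1 of a whole read, so no count model was used to test genes. The Poisson intervals given for Pcx rest on these estimated reads.

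Transcripts were summed per gene. The 3 rows without a gene held at most 0.0679% of a library. limma 3.58.1 (R 4.3.3) was fitted to log2(CPM + 1), with an intensity trend, 3 groups in 1 fit and Benjamini-Hochberg adjustment over 13764 genes, 2-sided. A fold change on this scale understates the change of low genes. The control has 1 library, so its spread is assumed to be that of the treated pairs. Median-of-ratios scaling used tested genes above 0.05 CPM in every library. The fit was tested on simulated data in which all libraries shared the same composition apart from the changes put in. That test does not cover the control's difference in composition or its unknown spread. All 10 members were named in each comparison, and listed relatives by role. The members, lists and markers were chosen with earlier results of these data known. Marker lists covered sebocytes, adipocytes, dermal fibroblasts, skeletal muscle, T cells, Langerhans cells, basal and suprabasal keratinocytes, melanocytes, endothelium and erythrocytes. Alternatives changed the pseudocount, filter, scaling, trend, block and libraries. The promoter windows are from RefSeq tables matched by symbol.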

Additional observations from a re-analysis of the deposited data

How the results depend on the processing

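The calls for the 10 genes differed between scalings. Against the control, genes called with forskolin numbered 9177 as deposited, 2997 after median-of-ratios scaling and 1902 after quantile normalization, with 9, 4 and 3 of the 10 members. With cAMP they numbered 9025, 3113 and 2045, with 9, 4 and 3 members. Scaling to nuclear values, pseudogenes included, gave 7883 genes and 9 members with forskolin, and 7007 genes and 9 members with cAMP. Same-numbered forskolin and cAMP libraries did not deviate together (correlation -0.045 as deposited, -0.068 scaled), so the numbers are not shown to pair them. The replicate block gave 9481, 9241 and 58 genes for forskolin against control, cAMP against control and forskolin against cAMP, with no member call changed. The block with scaling gave 2672, 2694 and 177, with 4, 3 and 1 members. Forskolin against cAMP gave 52 genes, and 16 with a pseudocount of 0.1, 33 with a filter of 10 CPM, 16 with scaling to nuclear values and 32 without the trend. Without a filter on low values limma called 0, with 967 genes at an unadjusted p under 0.05, against 48 called after median-of-ratios scaling.

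Direction reversed for Ldha, Mpc1, Mpc2, Pdha1 and Pdk1 under some settings. With forskolin, Ldha went to -0.30, Pdha1 to -0.28 and Pdk1 to -1.24 after median-of-ratios scaling, and Pdk1 to -0.92 with cAMP. Quantile normalization gave Ldha -0.027, Mpc1 -0.033, Mpc2 -0.0035, Pdha1 -0.20 and Pdk1 -1.25, and Pdk1 -0.91 with cAMP. The block with scaling gave Ldha -0.18, Mpc2 -0.013, Pdha1 -0.39 and Pdk1 -1.29, and Pdk1 -0.98 with cAMP.

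Leaving out 1 library at a time gave 5342 (without forskolin 1) to 10310 genes and 5 (without forskolin 2) to 9 members with forskolin, 7439 to 10173 genes and 8 to 10 members with cAMP, and 10 (without cAMP 2) to 71 genes and 0 members between compounds. Without the control the last was 46. With scaling, chosen after seeing the data, leaving out forskolin 1, forskolin 2, cAMP 1 and cAMP 2 gave 2538, 1954, 2972 and 2872 genes with forskolin (4 members), 3298, 3299, 2137 and 2113 with cAMP (3 to 6 members), and 86, 197, 3 and 0 between compounds (0 to 1 member). For the last of these counts 1050 genes had an unadjusted p under 0.05. Scaled forskolin values then ran from -0.39 to -0.21 for Ldha, -0.30 to -0.27 for Pdha1 and -1.32 to -1.16 for Pdk1, with Mpc1 at -0.23 without forskolin 1 and Mpc2 at -0.23 without forskolin 2. Scaled cAMP values were -0.12 for Ldha without cAMP 1 and -0.95 to -0.90 for Pdk1. Between compounds, Slc16a3 ran from -0.35 (without forskolin 2, on both scales) to 0.83 (without forskolin 1), with -0.04 without cAMP 2, and Ldha from -0.75 (without cAMP 2) to 0.11 (without cAMP 1). The cause of these changes was not tested. A lone library left in a group is assumed to vary like the others. Pcx, Pdk4 and Slc16a3 rest on 4, 9 and 6 estimated reads in the control, which limits their folds.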
